A study of Mus musculus with 6 samples.

Results

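Fast signalling between retinal neurons depends on receptors for glutamate, GABA and glycine, and the genes of these receptors are described here in retinas that lack Nxnl2 and in wild-type retinas. Members were all genes whose symbol places them among the AMPA, kainate, NMDA and metabotropic glutamate receptors, the GABA-A and GABA-B receptors or the glycine receptors, except Grm6, and which had a probe set naming no other gene. Each was represented by its probe set with the highest mean over the 6 arrays. This gave 42 genes of 18193 measured, in 11 families. Subunits with no such probe set in the annotation used here were not analysed here, so the orders given below are not orders of whole families.

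The mice were of strain BALB/c AJ and were killed at post-natal day 40, and each retina was dissected away from the pigment epithelium. Of 6 arrays, 3 carried wild-type retina (genotype wt/wt) and 3 were labelled as homozygous knockout (ko/ko). The labels name no other allele or treatment and do not say how the allele was made, how many animals a sample holds or whether replicates were separate animals, and so the p-values cover the spread among these arrays alone, part of which may be technical. The brighter probe set of Nxnl2, the deleted gene, had a log2 value of 11.42 ± 0.04 (SD, n = 3) in wild type. Its values were 3.78 in knockout replicate 1, 3.73 in replicate 2 and 9.21 for the third knockout label. This last array, called the array labelled knockout replicate 3 below, went against its label and is shown apart, and the comparison of genotypes uses the other 5 arrays, with 3 wild-type and 2 knockout samples. Over all probe sets it correlated with the others at 0.848 to 0.853, while the others correlated at 0.994 to 0.996 with each other. In it the 7 measured rod markers, such as Sag and Gnat1, lay at a median of -9.48 log2 units from the other 5 arrays with values under its floor set to the floor, and the 8 measured markers of olfactory mucosa, such as Omp and Obp1a, lay at 8.35. In the other 5 arrays every measured rod, bipolar, amacrine and horizontal cell marker stood above the highest bacterial control. Of the cone markers 7 of 8 did so in all 5, and of the ganglion cell markers 7 of 8. The signal of whole tissue cannot tell fewer cells of a type from less RNA per cell.

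As background, glutamate is the transmitter of photoreceptors, bipolar cells and ganglion cells, and GABA and glycine are those of amacrine and, for GABA, horizontal cells. AMPA, kainate and NMDA receptors are tetrameric channels that admit cations, while GABA-A and glycine receptors are pentameric channels that admit chloride. Metabotropic glutamate receptors and GABA-B receptors act through G proteins. In the retina, ionotropic glutamate receptors serve OFF bipolar, horizontal, amacrine and ganglion cells, and GABA-A receptors made of the Gabrr subunits, once called GABA-C receptors, sit largely on bipolar cell terminals.

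The brightest receptor transcripts of the retina came from the AMPA, Gabrr and GABA-B families. Levels are RMA values, background-corrected and normalized log2 signals of the array, and probe sets bind their targets with different strength, so the orders below are orders of signal and not of transcript number. As a floor served the highest of the 27 Bacillus control probe sets of each array, which match no mouse transcript and read between 4.18 and 4.60 in the 5 arrays. Of the 42 genes, 32 lay above this floor in all 5 arrays, 8 in none and 2 in some of them, while 72.0% of all genes lay above it in all 5. The median level of the receptor genes was 6.40, against 6.78 for all genes. Levels are given as the mean over the 5 arrays with their SD.

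Among AMPA receptor genes, Gria2 stood highest and all members lay above the floor. Gria2 encodes the subunit that makes the channel nearly impermeable to calcium. It read 9.84, 9.88 and 9.78 in wild-type replicates 1 to 3 and 9.95 and 9.89 in knockout replicates 1 and 2, a mean of 9.87 ± 0.06 that exceeded 91.2% of all genes. Gria4, which encodes a fast-gating pore subunit, read 9.24 ± 0.07. Gria1 followed at 7.36 ± 0.11 and Gria3 at 7.17 ± 0.19, and these last were closer than their summed SDs.

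Kainate receptor genes spanned from Grik5, which encodes a subunit that needs a partner to form a channel, down to the floor. Grik5 read 8.75 ± 0.14, well above the pore-forming Grik3 (5.61 ± 0.14) and Grik2 (5.52 ± 0.14), which were not apart from each other. Grik4, another partner subunit, read 4.84 ± 0.18, and Grik1 read 3.81 ± 0.08, below the floor in every one of the 5 arrays.

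The 6 NMDA receptor genes analysed were dim. Grin1 was not among them, so no level is given for the family as a whole. Grin2d led with 6.33 ± 0.12, followed by Grin2b (5.74 ± 0.12) and Grin3b (5.65 ± 0.15), which were not apart. Grin2c read 4.29 ± 0.10 and passed the floor in 3 arrays. Grin3a (4.02 ± 0.11) and Grin2a (3.12 ± 0.18) lay below it in all 5, so their signal could not be told from background in these arrays.

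All 6 metabotropic glutamate receptor genes lay above the floor. Grm7 and Grm8, of the group III receptors that reduce transmitter release, read 7.65 ± 0.20 and 6.85 ± 0.13. Grm5, a group I receptor coupled to phospholipase C, lay between them at 7.24 ± 0.06. Grm2 of group II (6.76 ± 0.16) was not apart from Grm8. Grm4 of group III read 6.47 ± 0.13 and Grm3 of group II read 5.24 ± 0.13.

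Gabrr1 and Gabrr2 were the brightest GABA-A receptor genes. Gabrr1 read 9.75, 9.84 and 9.91 in the wild-type arrays and 9.84 and 9.77 in knockout replicates 1 and 2. Gabrr2 read 9.50, 9.40 and 9.60, then 9.58 and 9.35. They exceeded 90.9% and 87.6% of all genes, and their wild-type and knockout values overlapped. The beta subunits, which stand in most GABA-A receptors, followed with Gabrb2 at 8.43 ± 0.15 and Gabrb1 between 6.64 and 7.17.

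Alpha subunits, which with gamma subunits set the response to benzodiazepines, fell into a measured and an unmeasured set. Gabra2 (6.79 ± 0.17), Gabra3 (6.54 ± 0.29) and Gabra4 (6.47 ± 0.27) had neighbours within their summed SDs. Gabra6, known from cerebellar granule cells, and Gabra5, known from hippocampus, lay below the floor in all 5 arrays at 3.26 ± 0.11 and 3.19 ± 0.14. Of the gamma subunits, Gabrg1 read 5.70 ± 0.15 and Gabrg3 5.07 ± 0.16. Gabrd, whose subunit forms receptors outside synapses, read 6.28 ± 0.12, and Gabrp, Gabre and Gabrq read 4.35 ± 0.16, 3.73 ± 0.15 and 3.11 ± 0.07. Gabrp passed the floor in 4 arrays and the other two in none.

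Gabbr1, the transmitter-binding subunit of the GABA-B receptor, read 9.65 ± 0.07, between Gabrr1 and Gabrr2. Glycine receptor genes were led by the alpha subunit gene Glra3 at 8.32 ± 0.19. Glrb, whose subunit ties the receptor to the scaffold protein gephyrin, read 7.56 ± 0.10. Glra2 read 6.81 ± 0.12, Glra1 6.18 ± 0.28 and Glra4 3.35 ± 0.15, the last below the floor in all 5 arrays. Over all families, 7 of 31 neighbouring pairs lay closer than the sum of their SDs. With the mean of all probe sets of a gene in place of the brightest, 26 of the 42 genes kept their place within the family.

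**Figure D1:**
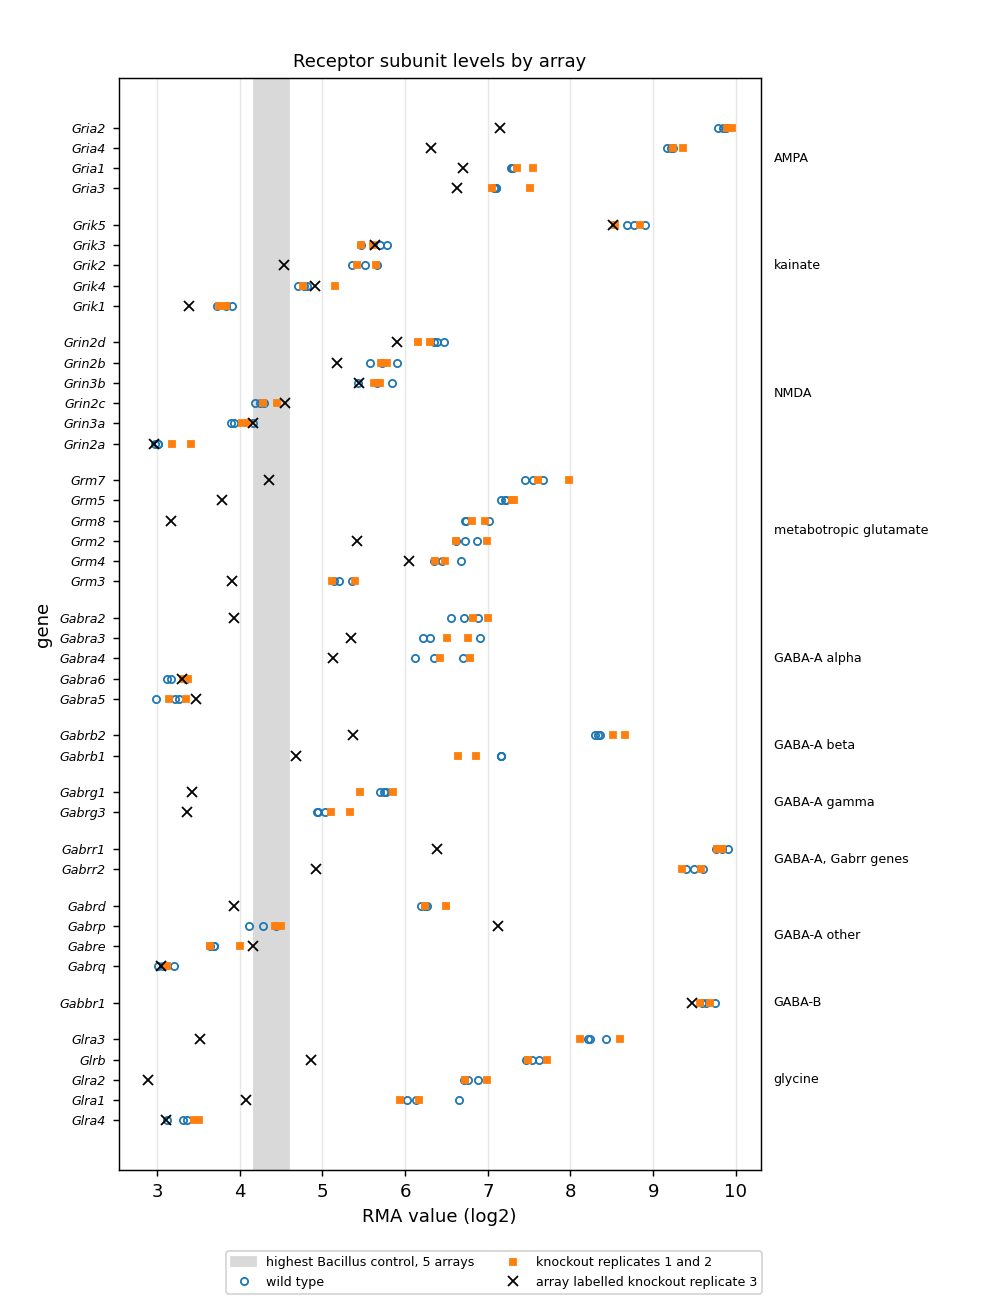
RMA values (log2, horizontal axis) of the 42 receptor genes, by family, with open circles for the 3 wild-type arrays, squares for knockout replicates 1 and 2, crosses for the array labelled knockout replicate 3 and a grey band for the highest Bacillus control of the 5 arrays (4.18 to 4.60). Circles and squares lie close together for each gene, and most crosses of bright genes lie to their left.

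No receptor gene passed the test between knockout and wild type in the 5 arrays. The comparison asks which receptor transcripts differ when Nxnl2 is missing. By limma with Benjamini-Hochberg adjustment over 18193 genes, 0 of the 42 genes had an adjusted p under 0.05, where 0.011% of all genes did (2 genes). At an unadjusted p under 0.05 stood 4 of the 42 genes, against 3.45% of all genes. The lowest adjusted p among the 42 was 0.999. All 42 intervals at 95% confidence lay within 1 log2 unit of no difference. The lowest bound was -0.64 for Gabrb1 and the highest 0.61 for Gabra4. Of the intervals, 38 excluded a change of signal of 1.5-fold in either direction, and those of Gabra3, Gabra4, Gabrb1 and Glra1 did not. The 38 include the 8 genes above the floor in none of the 5 arrays and the 2 above it in some. For these the interval sets no limit on a change of transcript. Among all 86 probe sets of these genes, 0 passed the adjusted threshold.

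Gabrb1 and Gabrb2, the beta subunit genes of the GABA-A receptor, had the smallest p of their family and opposite signs. Gabrb1 read 7.16, 7.17 and 7.16 in wild-type replicates 1 to 3, against 6.64 and 6.86 in knockout replicates 1 and 2. Both knockout values lay below all wild-type values, with a log2 difference of -0.41 (SE 0.10, limma adjusted p = 0.999, unadjusted p = 0.00278). Its next probe set by level read 5.24, 5.29 and 5.61 in wild type against 5.04 and 4.58, a difference of -0.57 in which the groups again did not overlap, and its further probe sets gave -0.14 and 0.03, the last of them below the floor. Without knockout replicate 1 the difference of the brightest probe set was -0.30, and without knockout replicate 2 it was -0.52.

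Gabrb2 read 8.34, 8.35 and 8.30 in wild type, against 8.66 and 8.51 in the knockout arrays. Both knockout values lay above all wild-type values, with a log2 difference of 0.26 (SE 0.09, limma adjusted p = 0.999, unadjusted p = 0.0235). All 5 Gabrb2 probe sets had a positive difference, from 0.11 to 0.27. Neither beta subunit passed after adjustment.

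**Figure D2:**
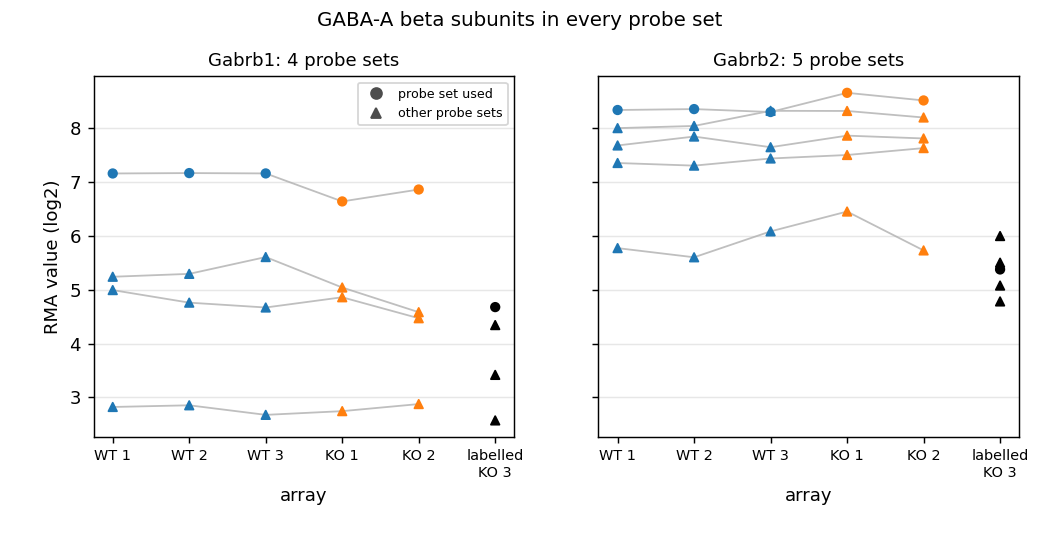
RMA values (log2, vertical axis) of every probe set of Gabrb1 and Gabrb2 in each array, with circles for the probe set used and triangles for the others, wild type in blue, knockout replicates 1 and 2 in orange and the array labelled knockout replicate 3 in black; grey lines only join the values of a probe set. The brightest Gabrb1 probe set reads 6.64 and 6.86 in the knockout arrays against at least 7.16 in wild type, and the brightest Gabrb2 probe set reads 8.66 and 8.51 against at most 8.35.

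The other genes at an unadjusted p under 0.05 were Gabrg3 and Grin2a. Gabrg3 read 4.95, 4.94 and 5.03 in wild type and 5.34 and 5.10 in knockout replicates 1 and 2, a difference of 0.25 (SE 0.10, limma adjusted p = 0.999). Without knockout replicate 1 it was 0.13. Its groups did not overlap, but its other probe sets ranged from -0.26 to 0.20 and lay below the floor in at least 1 array. Grin2a read 3.01, 3.01 and 2.98 in wild type and 3.18 and 3.42 in the knockout arrays, a difference of 0.30 (SE 0.10, limma adjusted p = 0.999). All 5 of these values lay below the floor, so the difference is one between background signals, and without knockout replicate 2 it was 0.19.

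The next genes by p included Glra4 at 0.21 (SE 0.10), also below the floor, or 0.14 without wild-type replicate 3. On the lower side, Grin2d stood at -0.18 (SE 0.10), Glra1 at -0.22 (SE 0.18) and Grik3 at -0.11 (SE 0.12), the last at -0.038 without knockout replicate 1, -0.043 without wild-type replicate 2 and -0.20 without wild-type replicate 1. The other Grik3 probe set, above the floor in all 5 arrays, had the opposite sign, at 0.14. Grin2d read 6.39, 6.35 and 6.48 in wild type and 6.16 and 6.30 in knockout replicates 1 and 2, without overlap, its other probe set differed by 0.07, and without knockout replicate 1 its difference was -0.11. The Glra1 difference rested on wild-type replicate 3, which read 6.65 against 6.03 and 6.14 in the other wild-type arrays and 6.16 and 5.93 in the knockout arrays. Its difference was -0.03 without wild-type replicate 3, -0.11 without knockout replicate 2, -0.34 without knockout replicate 1 and -0.34 without wild-type replicate 1.

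More receptor genes lay above the wild-type mean than below it, by small amounts. In the 5 arrays, 31 of 42 differences were above 0, where 51.9% of all genes were, and their median was 0.07 against 0.00 over all genes. The 31 include Gabra5, Gabra6, Gabre, Gabrq, Grin2a, Grin3a and Glra4, below the floor in all 5 arrays, and Gabrp and Grin2c, above it in some. For these the sign is largely one of background signal. With genes under the 40th percentile of level left out, 16 of the 24 receptor genes left lay above the wild-type mean. The knockout lay above all wild-type values for 7 of the 42 genes, against 9.19% of all genes, and below them for 2, against 7.27%. The shift was mainly one of knockout replicate 1: there the 42 genes had a median of 0.11 relative to the mean of wild type, against 0.03 in the other knockout array and -0.02 to 0.01 in the wild-type arrays. In knockout replicate 1, 20 genes exceeded all wild-type values, against 22.3% of all genes, and in knockout replicate 2, 12 did, against 31.3%. On the same scale, the median of microglia markers was 0.51 for knockout replicate 1 and 0.07 for replicate 2. All 8 measured microglia markers were above 0, though none passed. Muscle markers had medians of -0.31 and 1.91 in the same order. In wild-type replicate 2 lens markers stood at 1.53, against -0.83 to -0.73 in the other 4 arrays. Pigment epithelium markers had medians of -0.70 and -0.16 in knockout replicates 1 and 2, and -0.13, 0.50 and -0.37 in wild-type replicates 1 to 3. All 8 of them lay below the wild-type mean, with a median difference of -0.42, and 0 were called. The part of these tissues in the receptor values was not tested. Markers of the neurons that carry the receptors had these medians in knockout replicates 1 and 2 (amacrine 0.06 and 0.01, bipolar -0.08 and 0.09, ganglion 0.09 and 0.00, horizontal -0.12 and -0.06). The part of these cells in the receptor values was not tested either.

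By family, all 4 AMPA genes and all 5 alpha subunit genes had differences above 0, with medians of 0.12 and 0.16, and 0 of them passed. The alpha median lay between 0.078 and 0.200 with any single array removed, at 0.078 without wild-type replicate 3, 0.096 without knockout replicate 1 and 0.104 without wild-type replicate 1. Of the alpha genes, Gabra5 and Gabra6 lay below the floor in all 5 arrays. Of the metabotropic glutamate genes 5 of 6 were above 0 (median 0.06), of the NMDA genes 5 of 6 (0.05), of the glycine receptor genes 4 of 5 (0.07) and of the kainate genes 2 of 5 (-0.03). Of the NMDA genes above 0, Grin2a and Grin3a lay below the floor in all 5 arrays, and Grin2c passed it in 3. The others, Grin2b and Grin3b, differed by 0.01 and 0.02, against -0.18 for the brightest, Grin2d. Glra4 among the glycine receptor genes and Grik1 among the kainate genes also lay below the floor in all 5. Both Gabrr genes stood at -0.03, but their median was 0.043 without knockout replicate 2 and 0.014 without wild-type replicate 3. The kainate median turned to 0.013 without wild-type replicate 3 and 0.012 without knockout replicate 1. The Gabrr intervals were -0.24 to 0.19 for Gabrr1 and -0.28 to 0.22 for Gabrr2. Gabbr1 stood at -0.03 as well (interval -0.25 to 0.19), though it was 0.029 without knockout replicate 1 and 0.011 without wild-type replicate 3. Gria2 differed by 0.09 (interval -0.12 to 0.29) and Grm5 by 0.11 (interval -0.09 to 0.31), each without overlap of the groups. The other Grm5 probe set, above the floor in all 5 arrays, differed by 0.34 and did not pass after adjustment. It read 4.84, 4.83 and 4.53 in wild type and 5.11 and 5.04 in knockout replicates 1 and 2. Of the 26 genes with several probe sets, 16 had the same sign in all of them, among them all 4 AMPA genes.

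**Figure D3:**
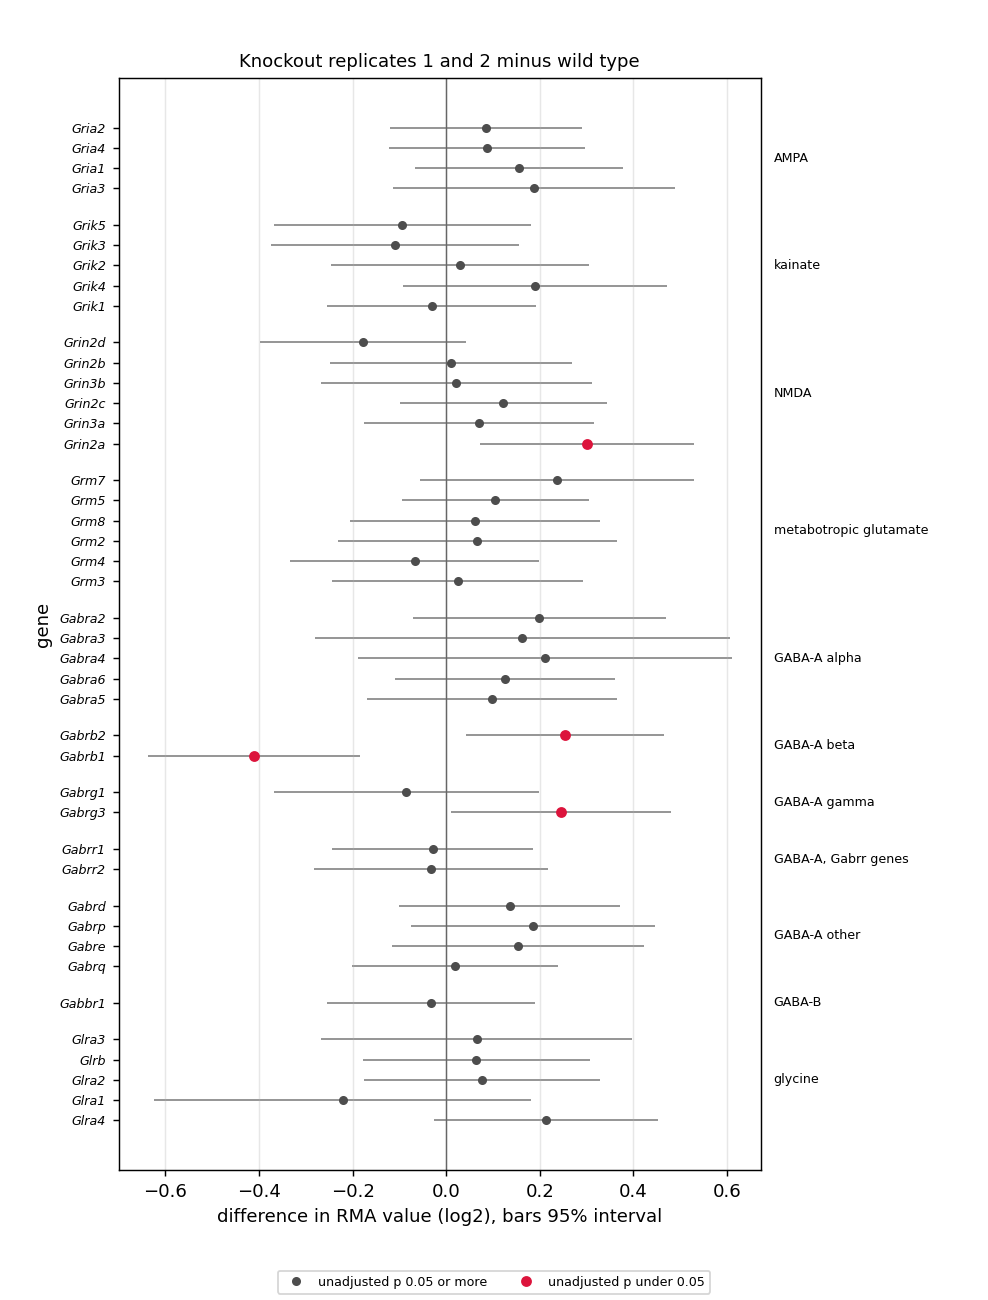
Mean of knockout replicates 1 and 2 minus the wild-type mean (log2, horizontal axis) for the 42 receptor genes, by family, with the 95% interval of the limma fit as bars and genes at an unadjusted p under 0.05 in red. All intervals lie within 1 log2 unit of 0, and Gabrb1 lies lowest at -0.41.

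Genes that serve these receptors gave no call either. Of the auxiliary subunits of AMPA and kainate receptors and the delta receptors, 16 of 17 listed genes were measured, with 7 differences above 0, a median of -0.01 and 0 genes called in either direction. Olfm1, the brightest of them, differed by 0.06. The excitatory scaffolds had 8 of 17 above 0 (median 0.00), the inhibitory scaffolds and GABA-B auxiliary subunits 7 of 15 (-0.02) and transmitter synthesis and transport 8 of 18 (0.00), again with 0 called in each. The brightest of these lists were the fusion factor gene Nsf (0.03), Gabarapl1 of the GABARAP family (-0.05) and the glutamine synthetase gene Glul (-0.04). By limma 0 genes of these 4 lists had an unadjusted p under 0.05, against 3.45% of all genes. Over all genes 0.011% were called.

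The array labelled knockout replicate 3 held most receptor transcripts at lower values than the other arrays. With 1 array there is no replicate check and no test. Of the 42 genes, 16 lay more than 2 log2 units below the mean of the other 5 arrays, against 4.49% of all genes, and 1 lay as far above, against 7.44%. Of these 16, 8 lay below that array's own floor of 4.13, where a value is only a bound. With such values set to the floor, 15 of the 42 genes lay over 2 log2 units below, against 4.35% of all genes. In total 32 genes lay below the range of the other 5 arrays (42.4% of all genes) and 5 above it (36.5%). The median of the 42 genes was -1.09, or -0.96 with values under the floor set to it, against -0.05 and 0.00 for all genes. Of the 32 genes above the floor in all of the other 5 arrays, 10 lay below the floor there, against 1.91% of such genes in all. Of the 10 not above it in all 5, 4 lay above it there (Gabrp, Gabre, Grin2c and Grin3a), against 35.1%. Over the 42 genes it correlated with each other array at 0.566 to 0.613, while the others correlated at 0.993 to 0.997, a description over genes that share their array.

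Gabrr2 lay farthest below among the genes still above that array's floor. It read 4.93 there against 9.35 to 9.60 in the other arrays, a difference of -4.56 from their mean. Gabrr1 read 6.38 against 9.75 to 9.91 (-3.44), and Grm7 read 4.35 against a mean of 7.65 (-3.30). For genes below the floor, the distance from the mean of the other 5 arrays to the floor is given as the least difference. Glra3, at 8.12 to 8.59 in the other arrays, lay at least 4.19 log2 units lower, and Grm5 at least 3.11. Grm8, at 6.72 to 7.01 in the others, lay at least 2.72 lower, and Glra2, at 6.71 to 6.99, at least 2.68. These bounds give no order between Glra3 and Gabrr2.

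AMPA genes split in this array. Gria4 and Gria2 stood at -2.93 and -2.71, while Gria1 and Gria3 stood at -0.65 and -0.54. The Gria1 probe set that was brightest in the 5 other arrays (7.39) stood at -1.08. There the AMPA genes lay between 6.31 and 7.15, whereas the retina arrays held them between 7.06 and 9.95. Among GABA-A genes, Gabrb2 (-3.06) and Gabrb1 (-2.32) lay over 2 log2 units lower and above the floor. Gabra2 lay at least 2.66 lower, Gabrd at least 2.15, Gabrg1 at least 1.57 and Gabrg3 at least 0.94.

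Kainate and NMDA genes and the brightest probe set of Gabbr1 lay within 1 log2 unit of the other arrays. Grik1, Grin2a and Grin3a had means of the other 5 arrays below the floor of the array labelled knockout replicate 3 (4.13), so a fall could not be measured. For Grik4 and Grin2c, at 4.84 and 4.29, a fall of 1 log2 unit could not be measured either. Below the range of the other 5 arrays lay 3 of 5 kainate and 3 of 6 NMDA genes, and 2 NMDA genes lay above it. Gabbr1 read 9.47 against 9.57 to 9.75, a difference of -0.17, and was the brightest receptor gene there, but a dimmer Gabbr1 probe set read 7.76 against 6.38 to 6.87. Grik5 read 8.51 (-0.23), Grik2 read 4.54 against 5.35 to 5.66 (-0.98) and Grin2b read 5.17 against 5.58 to 5.91 (-0.57). The kainate genes had a median of -0.23 and the NMDA genes one of -0.19. In all, 16 of the 42 genes were within 0.5 of the mean of the other arrays. Among them were the 8 genes above the floor in none of the other 5 arrays, for which a fall could not be measured.

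Gabrp went the other way. It encodes the pi subunit, known from epithelial tissues, and read 7.13 in that array against 4.11 to 4.50 in the other 5, a difference of 2.77. Its other probe set read 9.03 against 3.36 to 3.83. Next above stood Gabre, Gabra5 and Grin2c at 0.43, 0.27 and 0.26, but their values lay near or below the floors, so no size is read from them. Markers of retinal neurons were also lower in this array, with medians of -1.89 for amacrine, -2.50 for bipolar, -2.85 for ganglion and -2.11 for horizontal cells from the other 5 arrays. Their part in the receptor values was not tested.

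**Figure D4:**
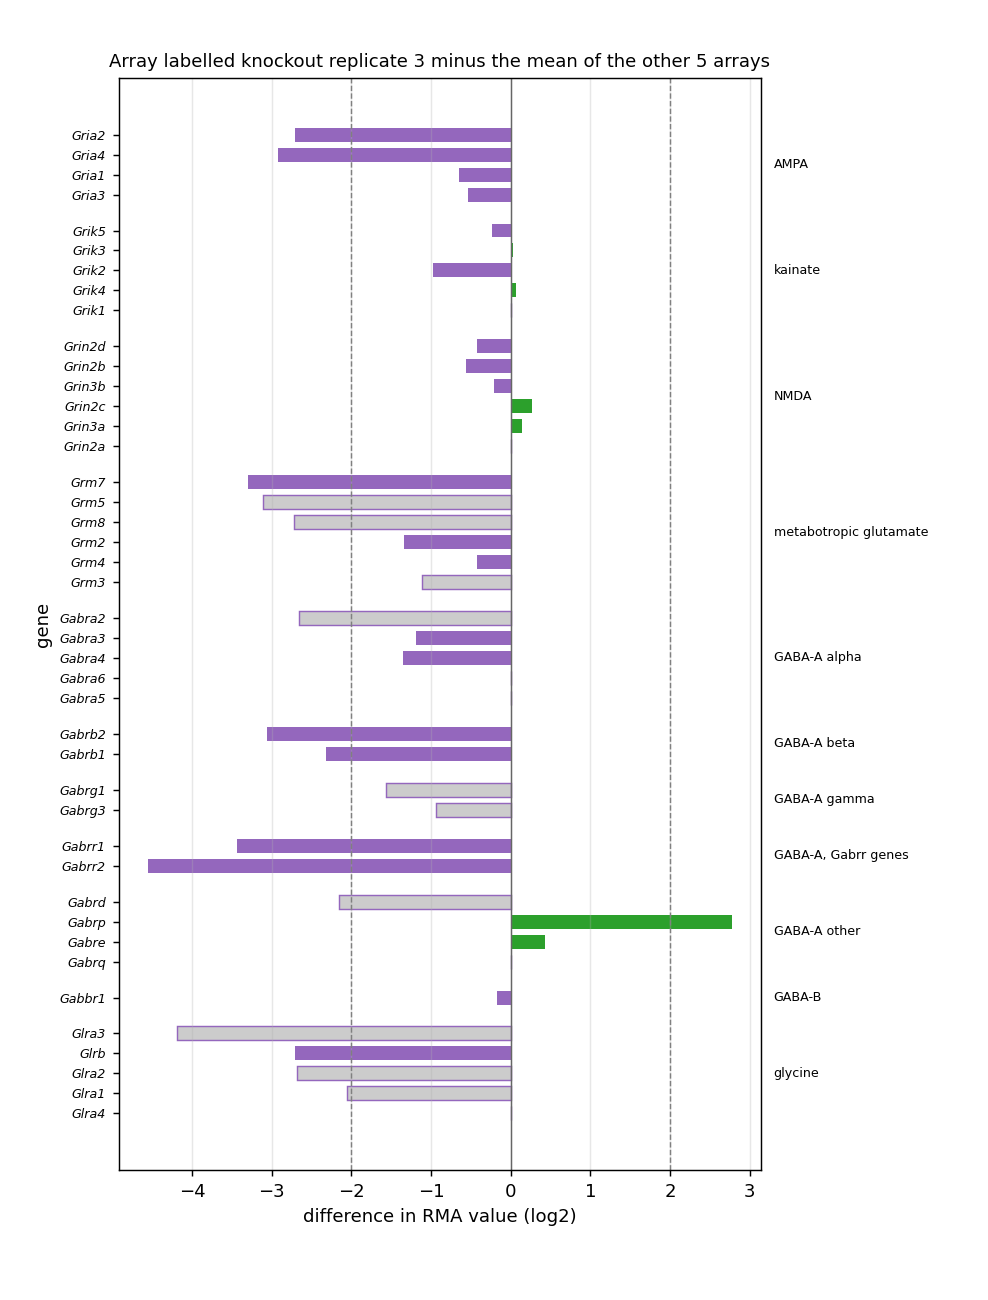
Value of the array labelled knockout replicate 3 minus the mean of the other 5 arrays (log2, horizontal axis) for the 42 receptor genes, by family, with dashed lines at 2 log2 units. Grey bars stop at that array's floor (4.13) and are least differences, and genes below the floor there and with a mean below it have no bar. Gabrr2 extends to -4.56 and Gabrp alone past 2 upwards, at 2.77, while the kainate and NMDA genes with a bar lie between -0.98 and 0.26.

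The 250 bases before the start sites of the Gabrr genes and of Gabrp are shown as examples. The Gabrr genes lay over 2 log2 units below the others in that array, at measurable values. So did Gria2, Gria4, Gabrb1, Gabrb2, Glrb and Grm7, whose windows are not shown. Gabrp alone was over 2 log2 units above. The sequences are RefSeq's for build GRCm38.p6, read 5′ to 3′ on the gene's strand. Gabrr2 and Gabrr1 lie on the plus strand of chromosome 4, at chr4:33062862-33063111 and chr4:33132306-33132555, and Gabrp on the minus strand of chromosome 11, at chr11:33578958-33579207. Capitals mark TAATCC, the core letters of the sites bound by the photoreceptor and bipolar cell factors CRX and OTX2, searched on both strands (the other strand reads GGATTA).
Gabrr2: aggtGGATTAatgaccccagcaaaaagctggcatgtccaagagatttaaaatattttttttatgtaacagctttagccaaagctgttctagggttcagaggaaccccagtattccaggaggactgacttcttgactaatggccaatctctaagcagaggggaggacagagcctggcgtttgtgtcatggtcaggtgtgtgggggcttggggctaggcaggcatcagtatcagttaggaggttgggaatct
Gabrr1: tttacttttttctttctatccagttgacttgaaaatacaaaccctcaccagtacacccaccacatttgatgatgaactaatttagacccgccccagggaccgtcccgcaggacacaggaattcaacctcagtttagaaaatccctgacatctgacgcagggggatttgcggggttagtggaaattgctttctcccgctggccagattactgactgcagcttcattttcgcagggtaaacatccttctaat
Gabrp: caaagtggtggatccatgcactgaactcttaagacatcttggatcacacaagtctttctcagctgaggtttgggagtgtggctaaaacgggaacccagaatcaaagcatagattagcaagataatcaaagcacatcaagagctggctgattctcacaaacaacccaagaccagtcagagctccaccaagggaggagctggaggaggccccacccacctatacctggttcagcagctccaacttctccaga
The motif occurred once, on the other strand, in the Gabrr2 window, starting 246 bases before the start site, and its letters were not in the other two windows. Of 32851 windows of this length before start sites, 6.25% held it. Of the 42 receptor genes, 32 matched the promoter table by symbol, with 39 windows, of which 2 held the motif. A match of letters is a description and not a binding site.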

How the data were processed

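Total RNA of 6 retina samples was labelled as biotinylated cRNA for one-colour Affymetrix arrays, per the labels' protocols. RMA produced the deposited log2 values, per the submitters' processing notes. It subtracts background, brings arrays to a shared distribution and joins the probes of a set into 1 value. Its software and version are not given in the labels. Array medians of 5.77 to 5.80 reflect this step, which hides any change of total RNA. Precision is limited by how few arrays there are.

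Of 45101 probe sets 64 controls were left out, and 34945 of the remaining 45037 named 1 gene in the platform annotation. All 42 receptor genes matched RefSeq by Entrez identifier. Knockout replicates 1 and 2 were set against wild type with lmFit and eBayes of limma 3.58.1 in R 4.3.3, two-sided, with p-values adjusted over all genes (Benjamini-Hochberg, threshold 0.05). The procedure was tested on simulated data. Figures were drawn with matplotlib 3.10.9. Alternatives were other limma options, scaling, filters, probe set rules, thresholds, all 6 arrays, a replicate block and each array left out. Every receptor gene is named by its level. Differences are given for genes at an unadjusted p under 0.05, the 4 smallest p in each direction and the 4 farthest in each direction in the array labelled knockout replicate 3; other genes were named after their values were seen. Members, lists and motif were chosen with earlier results of these data known.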

Additional observations from a re-analysis of the deposited data

How the results depend on the processing

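In no alternative did a receptor gene pass limma's adjusted p. The alternatives for the count of genes above the wild-type mean and the values set to the floor were chosen after seeing the data. With all 6 arrays, 0 of all genes passed and 0 receptor genes had an unadjusted p under 0.05, 9 receptor genes lay above the wild-type mean, and the medians were -0.46 for AMPA, -0.15 for kainate, -0.67 for metabotropic glutamate, -0.27 for alpha, -0.96 for beta, -0.60 for gamma, -1.36 for the Gabrr genes and -0.88 for glycine receptor genes and -0.28 for all 42; Gabrb2 turned to -0.81 and Gabrg3 to -0.38. With dim genes left out, 2 receptor genes had an unadjusted p under 0.05, 16 of the 24 left lay above the wild-type mean, and the NMDA value of -0.18 is that of Grin2d alone. With any single array of the 5 removed, 1 to 8 of all genes were called, 2 to 6 receptor genes had an unadjusted p under 0.05, and medians ran from 0.043 to 0.136 for AMPA, 0.011 to 0.089 for NMDA, 0.021 to 0.130 for metabotropic glutamate, -0.098 to -0.058 for beta, -0.078 to 0.238 for gamma, 0.078 to 0.200 for alpha, -0.074 to 0.013 for kainate, -0.104 to 0.043 for the Gabrr genes, 0.082 to 0.151 for the delta, epsilon, pi and theta genes, -0.095 to 0.029 for Gabbr1, -0.056 to 0.209 for glycine receptor genes and 0.028 to 0.114 for all 42; where 1 knockout array is left, its spread is taken to equal that of wild type. The AMPA median was 0.13 after quantile normalization, 0.087 with the brightest probe set of the 5 arrays and 0.16 with the most variable one. With the mean of all probe sets 1 of all genes was called, the beta and gamma medians were -0.039 and -0.0066, Grik3 stood at 0.018 and 26 of 42 genes kept their place within the family. With the most variable probe set the medians were -0.15 for beta, -0.17 for gamma and 0.077 for the delta, epsilon, pi and theta genes, and Gabrg3 (-0.26), Grin2d (0.068) and Grik3 (0.14) changed sign. The counts for the array labelled knockout replicate 3 kept within 1.5 times of 16 below and 1 above in each alternative run. Deviations of same-numbered arrays from their group means correlated at -0.07 and 0.08 in the 5 arrays, and at -0.08 to -0.01 in the 6. With 2 knockout arrays the deviations mirror each other, and in the 6 the knockout mean holds the array labelled knockout replicate 3. These values therefore cannot decide whether same-numbered samples were paired. With the replicate block 3 of all genes were called, 0 receptor genes were called and 4 had an unadjusted p under 0.05.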
